A study of Mus musculus with 3 samples.

Results

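The small proline-rich genes of the mouse, named Sprr, were followed in 3 droplet libraries of single cells from cornea and limbus. Members were the rows of the count files whose symbol was Sprr1a, Sprr1b, Sprr2d, Sprr2f, Sprr2h, Sprr3, Sprr2a1 or Sprr2b. These are 8 of 15 Sprr rows and 8 of 32285 genes. They were chosen by their UMI counts in these libraries, which were known when the genes were picked, so levels and ratios are given as descriptions. Of the libraries, 1 came from uninjured tissue. The other 2 came from tissue injured with the alkylating agent nitrogen mustard (NM), 1 treated with saline and 1 with losartan, a blocker of the angiotensin receptor AT1. The sample titles do not give the number of mice per library. All 3 libraries carry the genotype label wt. The sources used here do not give strain, age, sex, time after injury, or the dose and route of losartan. Tissue was dissected to leave the front of the eye without lens, retina, iris and most of the conjunctiva. With 1 library per group no difference has a replicate check and no test was possible. All intervals below are 95% intervals that cover counting error only.

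Small proline-rich proteins are precursors of the cornified envelope, the protein shell that stratified epithelial cells build under the plasma membrane as they differentiate. Transglutaminases join them to each other and to partners such as involucrin and loricrin, and the proteins act as flexible bridges whose mix sets the properties of the barrier. Healthy corneal epithelium is stratified but does not normally cornify. Genes of the Sprr family are known to be switched on in surface epithelia under stress or during repair, and in the conjunctiva and cornea in squamous change.

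All 8 genes lie together on chromosome 3, in the epidermal differentiation complex, within 270.097 kb of GRCm38. By the GENCODE annotation, each has 2 exons, with the coding sequence in 1 of them. Sprr2a1 (chr3:92215799-92221911), Sprr2b (chr3:92316620-92318085), Sprr2d (chr3:92339140-92340873), Sprr2f (chr3:92365187-92366442) and Sprr2h (chr3:92385685-92387324) are on the plus strand. Sprr1b (chr3:92436809-92438789), Sprr3 (chr3:92456502-92458720) and Sprr1a (chr3:92483952-92485895) are on the minus strand. For Sprr2a1, 93.2% of the 90-base windows of its transcript also occur in Sprr2a2, Sprr2a3 or Sprr2b, so its counts cannot be told apart from those of its copies. Sprr2b shares 1.87% of its windows, and the other 6 members share 0 windows with any other annotated transcript.

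The 250 bases before the start of the 5 members with the most counts are shown because these genes lie near each other and carry most of the counts described below. The sequences are RefSeq's for GRCm38.p6, each 5′ to 3′ on the gene's own strand, with matches to 3 motifs in capitals. The motifs were the AP-1 site TGANTCA and the octamer ATTTGCAT, both searched on both strands, and the TATA box TATAAA on the gene's own strand. No match overlaps another.
Sprr2f: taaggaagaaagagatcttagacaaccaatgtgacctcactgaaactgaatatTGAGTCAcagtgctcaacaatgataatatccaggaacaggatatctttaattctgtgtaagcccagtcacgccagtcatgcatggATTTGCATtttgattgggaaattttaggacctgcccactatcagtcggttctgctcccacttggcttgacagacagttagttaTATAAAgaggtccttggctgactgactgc
Sprr2d: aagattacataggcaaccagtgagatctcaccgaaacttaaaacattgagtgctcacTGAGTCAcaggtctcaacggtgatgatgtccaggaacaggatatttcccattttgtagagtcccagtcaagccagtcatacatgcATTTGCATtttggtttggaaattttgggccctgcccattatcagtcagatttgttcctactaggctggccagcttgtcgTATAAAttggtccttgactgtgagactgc
Sprr2h: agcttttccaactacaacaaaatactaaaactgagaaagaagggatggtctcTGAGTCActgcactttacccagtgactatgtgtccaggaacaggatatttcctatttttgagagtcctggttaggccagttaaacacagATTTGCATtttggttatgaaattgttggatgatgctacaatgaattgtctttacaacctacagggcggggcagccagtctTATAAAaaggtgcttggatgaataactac
Sprr1b: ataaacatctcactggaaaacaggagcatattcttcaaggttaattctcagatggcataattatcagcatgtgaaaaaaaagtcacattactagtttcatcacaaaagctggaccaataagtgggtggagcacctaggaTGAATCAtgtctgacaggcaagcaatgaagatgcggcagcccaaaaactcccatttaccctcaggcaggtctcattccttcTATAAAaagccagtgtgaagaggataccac
Sprr1a: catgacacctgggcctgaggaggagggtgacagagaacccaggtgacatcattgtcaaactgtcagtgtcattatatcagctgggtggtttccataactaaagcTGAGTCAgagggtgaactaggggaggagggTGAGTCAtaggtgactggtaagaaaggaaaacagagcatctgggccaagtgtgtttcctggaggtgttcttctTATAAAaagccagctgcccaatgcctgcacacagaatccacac
They cover chr3:92364937-92365186 (Sprr2f, plus strand), chr3:92338890-92339139 (Sprr2d, plus), chr3:92385435-92385684 (Sprr2h, plus), chr3:92438780-92439029 (Sprr1b, minus) and chr3:92485882-92486131 (Sprr1a, minus).

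Sprr2f, Sprr2d and Sprr2h have the same 3 motifs in the same order. The octamer begins 112, 108 and 109 bases before the start, the AP-1 site begins 197, 193 and 198 bases before it, and the TATA box begins 29 bases before it in each. Sprr1b has an AP-1 site 111 bases before the start and Sprr1a has AP-1 sites 146 and 116 bases before it, with no octamer in either. In the whole family described here, AP-1 matched in 6 of 8 promoters, the octamer in 4 of 8 (the fourth is Sprr2b) and the TATA box in 7 of 8. Among all 32851 RefSeq promoters of the same 300-base length (250 before and 50 after the start), 7.81% held the AP-1 letters, 1.74% the octamer and 8.32% the TATA box. The interferon-stimulated response element, searched on both strands and present in 3.44% of promoters, matched in 0 of 8. In a global alignment, the promoter of Sprr2f was 73.2% identical to that of Sprr2d and 61.9% to that of Sprr2h, against 52.0% to that of Sprr1b and 48.9% to that of Sprr1a. These matches describe the letters in these windows and do not show binding.

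The values are counts of unique molecular identifiers (UMIs), which tag single RNA molecules. The libraries held 177003042 (uninjured), 83155441 (NM saline) and 92753670 (NM losartan) UMIs. After filtering, 11233, 5800 and 4919 cells were kept. Each cell was given a class by the UMIs of fixed marker lists, and 10486 uninjured, 1218 saline and 1917 losartan cells fell in the epithelial class. Their median depths were 11577.5, 17561.5 and 28359 UMIs. Of these epithelial-class cells 0, 158 and 29 had over 100000 UMIs. Corneal markers were low after injury, with class medians of 504 uninjured, 4.65 saline and 68.3 losartan UMIs per 10000, and their part in the Sprr levels was not tested. The libraries shared 21 barcodes (uninjured and saline), 28 (uninjured and losartan) and 7 (saline and losartan). Levels are in CPM, the UMIs of a gene per 1000000 UMIs of the class, and are compared between libraries within a gene, not between genes.

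In uninjured epithelium only Sprr1a was present at a level above a few UMIs. Sprr1a, an envelope precursor, stood at 66.9 CPM (9014 UMIs) in the uninjured library. Sprr1b, Sprr2f, Sprr2h and Sprr2d had 17, 19, 14 and 10 UMIs among 134655440, or 0.126, 0.141, 0.104 and 0.0743 CPM, and the 10 UMIs of Sprr2d were all in 1 cell. Sprr3, Sprr2a1 and Sprr2b had 0 UMIs, which allows up to 0.0223 CPM, though the windows shared with its copies leave the level of Sprr2a1 open. Sprr1a was itself found in few cells there, with a UMI in 11.9% (11.3 to 12.5) of uninjured epithelial-class cells. Just 87 of 10486 cells held 50% of its UMIs. Those 87 cells had a median of 113 UMIs of the wound keratin list (Krt6a, Krt6b, Krt16 and Krt17) per 10000, against 4.15 over all uninjured epithelial-class cells, and 894 against 504 UMIs per 10000 of the corneal list (Krt12, Aldh3a1, Slurp1, Lypd2, Pax6, Adh7, Dapl1 and Aqp5).

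Both injured libraries had far higher levels of all 5 members that reached 10 CPM. Sprr2f stood at 2093 CPM in the saline library and 517 CPM in the losartan library. Sprr1b stood at 717 and 739 CPM. Sprr1a reached 3872 and 2359 CPM. Thus the order of the libraries was saline, losartan and uninjured for Sprr2f and Sprr1a, while for Sprr1b the injured libraries lay close together and far above the uninjured one. Sprr2d was at 143 CPM with saline and 48.5 CPM with losartan. Sprr2h was at 84.9 and 49.2 CPM. Neither of them was above 0.104 CPM in the uninjured library.

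Log2 ratios were taken on CPM + 5, which keeps genes near 0 from giving huge folds, and a change of 1.5-fold on that scale was used as a rule of size. Measured genes reached 10 CPM in either library. Sprr1b, Sprr2d, Sprr2f and Sprr2h did so only in the injured libraries, so the filter and the choice of members fixed their direction, and nothing is read from the counts of members higher than uninjured. Against the uninjured library, the saline library had 5 of 5 measured members higher, where 19.8% of all 8760 measured genes were higher, and 0 of 5 lower, where 17.6% of genes were. The log2 ratios were 8.67 for Sprr2f, 7.14 for Sprr1b, 5.75 for Sprr1a, 4.87 for Sprr2d and 4.14 for Sprr2h. Sprr2f was the second highest gene of all those measured and Sprr1b the third. The median over the 5 was 5.75 and that over all genes 0.01. For the losartan library, 5 of 5 were higher than in the uninjured one, where 14.7% of 8524 genes were, and 0 of 5 lower, where 20% (1709 genes) were, with log2 ratios of 7.18 for Sprr1b, 6.67 for Sprr2f, 5.04 for Sprr1a, 3.41 for Sprr2h and 3.40 for Sprr2d. Both comparisons use the same uninjured library.

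**Figure D1:**
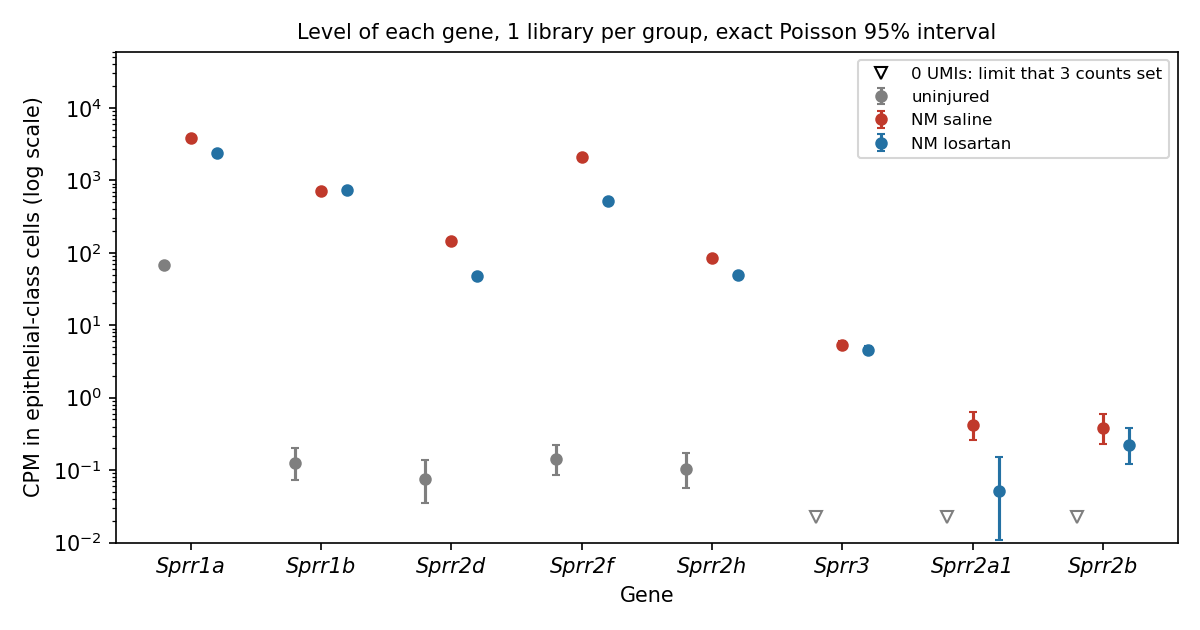
Level of each Sprr gene in the epithelial-class cells of each library, in CPM on a log axis; points are library totals, bars exact Poisson 95% intervals, and open triangles mark genes with 0 UMIs at the limit that 3 counts set. Uninjured Sprr1a stood at 66.9 CPM and the other uninjured points at 0.141 CPM or less, while the saline and losartan points of Sprr1b nearly coincide at 717 and 739 CPM.

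The losartan library had lower levels than the saline library for 4 of 5 measured members, where 5.76% of all 8114 measured genes were lower, and 0 of 5 were higher, where 2.13% were. Sprr2f was 4.05-fold lower, a losartan to saline ratio of 0.247 (0.244 to 0.250), and its log2 ratio of −2.01 was the sixth lowest of all 8114. Sprr2d was 2.95-fold lower (2.83 to 3.09). Sprr2h was 1.73-fold lower (1.65 to 1.81) and Sprr1a 1.64-fold lower (1.63 to 1.65). The exception was Sprr1b, with a losartan to saline ratio of 1.03 (1.02 to 1.05). The family therefore did not move as a block between the injured libraries, and its members spread over log2 ratios from −2.01 to 0.04 around a median of −0.73, against −0.08 for all genes. Without cells over 100000 UMIs, Sprr1a no longer passed 1.5-fold (log2 ratio −0.54) and Sprr1b stood at 0.37. Leaving out the cell with most UMIs of the gene in each library, a setting chosen after the data had been seen, gave −2.17 for Sprr2f and −1.38 for Sprr2d. In the 129 saline and 194 losartan cells with no UMI of the immune marker lists, which hold Arg1, Sprr2f alone passed 1.5-fold (log2 ratio −1.12), and Sprr2d stood at −0.04. Shallow cells lack such UMIs more easily, and depth was not matched.

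The other members had few counts. Sprr3, the member best known from esophagus and other moist epithelia, had 265 UMIs in the saline library (5.30 CPM) and 261 in the losartan library (4.52 CPM). Its losartan to saline ratio was 0.852 (0.715 to 1.01), an interval that holds 1. Against the limit that 3 counts set in the uninjured library it was at least 238-fold higher with saline and at least 203-fold higher with losartan. Sprr2a1 had 21 and 3 UMIs and Sprr2b 19 and 13 UMIs, all under 0.5 CPM. Because 93.2% of the Sprr2a1 windows also occur in its copies, its low count does not give its level. The promoter window of Sprr2b holds the same 3 motifs as that of Sprr2f. Outside the members, only Sprr2a3 of the 7 other Sprr rows was measured, at 55.6 CPM with saline, 32.1 CPM with losartan and 0 UMIs in the uninjured library.

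Nearly all Sprr UMIs lay in the epithelial class. In the saline and losartan libraries alike it held at least 99.0% of the UMIs of each of the 8 members in kept cells. In the saline library, the 5 measured members stood in all other classes together at 0.865% to 1.57% of their epithelial level, next to 0.824% for the basal keratin Krt14. In the losartan library the range was 1.24% to 2.20%, next to 1.24% for Krt14. The part of free RNA in these values was not tested. Within neutrophils they reached 1.09% to 1.96% with saline (Krt14 1.10%) and 2.48% to 4.53% with losartan (Krt14 3.11%). Macrophage or monocyte cells were lower, at 0.452% to 1.06% and 0.523% to 1.13%. Stromal fibroblast cells had 1.26% to 2.05% and 1.06% to 2.33%.

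Shares of cells with a UMI were compared after thinning every cell to 2000 UMIs, since depth differed between libraries and classes. Thinning left 893 of 1218 saline and 1644 of 1917 losartan epithelial-class cells, because 325 and 273 were shallower. At that depth 28.8% (25.8 to 31.9) of saline-treated and 10.8% (9.31 to 12.4) of losartan-treated cells had Sprr2f. Sprr1b went from 32.6% (29.5 to 35.8) to 36.2% (33.9 to 38.6), and Sprr1a from 57.4% (54.1 to 60.7) to 52.1% (49.6 to 54.5). So a smaller share of losartan cells had a Sprr2f UMI at equal depth, while the shares for Sprr1b overlapped in their intervals. Sprr2d was found in 5.94% (4.48 to 7.69) and 3.10% (2.32 to 4.06), and Sprr2h in 8.73% (6.97 to 10.8) and 5.11% (4.10 to 6.29). In neutrophils, which should lack these genes, the thinned shares with saline and losartan were 4.68% and 2.32% for Sprr2f, 1.60% and 4.04% for Sprr1b, and 7.94% and 11.1% for Sprr1a. Each lay below the epithelial share. For Sprr2d the neutrophil shares were 0.653% and 0.344%, and for Sprr2h 0.363% and 0.430%. The neutrophils' median depths were 3929.5 and 2605.5 UMIs. Without thinning, Sprr2f was found in 52.8% and 25.1% of epithelial-class cells, Sprr1b in 57.5% and 65.6%, and Sprr1a in 75.5% and 76.9%. Unthinned shares were 15.1% and 7.77% for Sprr2d and 32.8% and 22.2% for Sprr2h.

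How far a gene is concentrated was measured by the fewest cells that hold 50% of its UMIs, again with each cell at 2000 UMIs. Sprr2d was the most concentrated of the 5 in both libraries, with 9 of 893 saline cells (1.01%) and 6 of 1644 losartan cells (0.365%). Sprr1a was the broadest, with 85 saline cells (9.52%) and 123 losartan cells (7.48%). Sprr2f differed between the libraries. With saline 42 cells (4.70%) held 50% of it, with losartan 13 cells (0.791%). Sprr1b did not narrow, at 43 cells (4.82%) and 96 cells (5.84%). For Sprr2h it was 20 cells (2.24%) and 23 cells (1.40%).

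Over all measured genes, the median at this depth was 3.36% of saline and 3.35% of losartan cells. Against single genes, 2.90% of 7954 genes were more concentrated than Sprr2d in the saline library and 0.0393% of 7641 genes in the losartan library. For Sprr2f these shares were 64.4% with saline and 0.550% with losartan, and for Sprr1a 89.5% and 81.4%. At equal depth, Sprr2d thus ranked among the narrowest genes of both libraries and Sprr2f among those of the losartan library. Sprr1a ranked as broader than most. The genes were not matched for level, and a gene with few UMIs after thinning can lie in few cells only. These ranks therefore depend on level as well as on spread over cells. At full depth, where 15.2% of saline and 22.5% of losartan cells held 50% of all UMIs, 50% of a member lay in a smaller share of cells than after thinning, except for Sprr2d in the losartan library. There, 53 saline and 79 losartan cells held 50% of Sprr1a, 28 and 59 of Sprr1b, 29 and 7 of Sprr2f, 8 and 8 of Sprr2d and 23 and 17 of Sprr2h. The place of Sprr1a among all genes turned with depth, since at full depth only 5.12% of genes with saline and 3.30% with losartan were more concentrated than it. For Sprr2f the full-depth values were 1.45% and 0.0654%. A single losartan cell, with 4215 UMIs, held 14.1% of that library's Sprr2f.

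**Figure D2:**
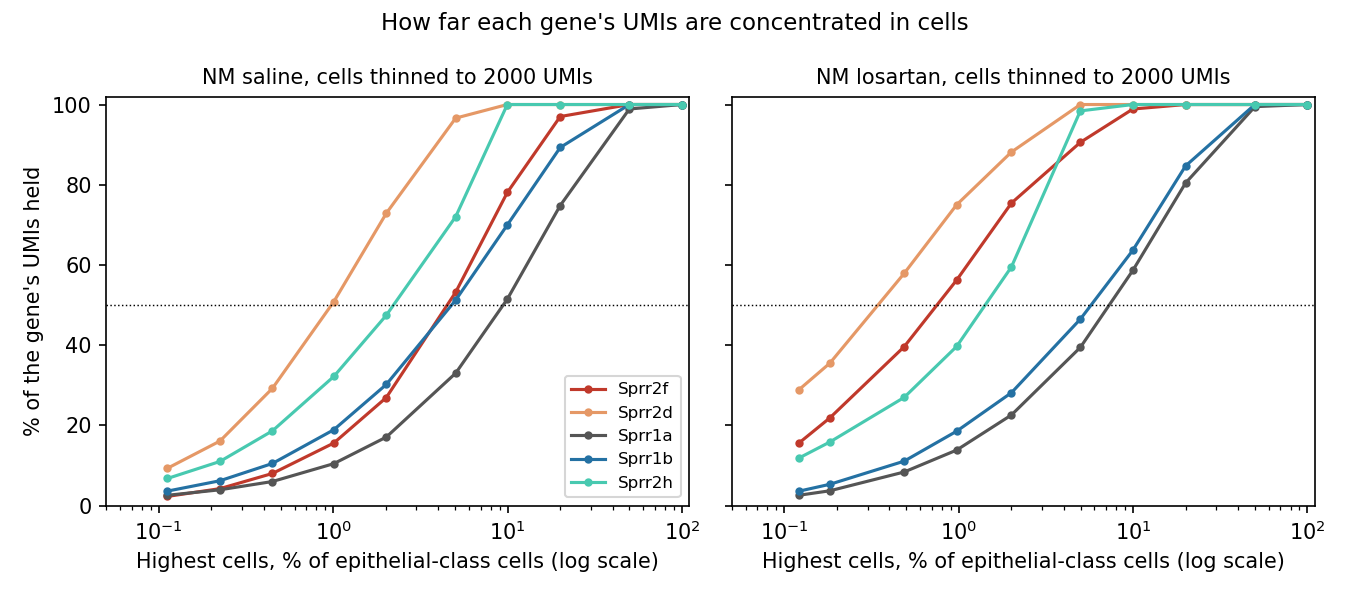
Share of a gene's UMIs (y axis, %) held by the highest cells for that gene (x axis, % of epithelial-class cells, log scale), 1 curve per gene, in the saline and losartan libraries with each cell thinned to 2000 UMIs; the dotted line is 50%. The Sprr2f curve crosses it at 4.70% of saline cells and 0.791% of losartan cells, while Sprr1b crosses at 4.82% and 5.84%.

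Which members go together was read from the thinned cells in 2 ways, by shared detection and by the Pearson r of log1p(counts per 10000) across cells. Cells of a library share that library, and r has no p here. Sprr1a and Sprr2f had the highest r with saline, 0.57 over 893 cells, and 0.35 over 1644 losartan cells. Sprr2d and Sprr2f had 0.37 and 0.38, and Sprr1a and Sprr1b had 0.37 and 0.33. These 3 were the only pairs of the 10 with an r of 0.2 or more in both libraries at this depth. Sprr1b and Sprr2f were close to unrelated, at 0.08 and 0.05. For Sprr1b and Sprr2h it was 0.18 and 0.23, a weak relation in sparse counts. At full depth and at 5000 UMIs per cell, this pair and Sprr1a with Sprr2d also had an r of 0.2 or more in both libraries.

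Shared detection was read in the same cells. With saline, 81.1% of the 53 cells with a Sprr2d UMI also had Sprr2f, against 28.8% of all cells, and with losartan 58.8% of 51 cells against 10.8%. Nearly every cell with Sprr2f had Sprr1a, 92.6% of 257 saline cells and 88.7% of 177 losartan cells, against 57.4% and 52.1% of all cells. Sprr1b was found in 38.5% and 35.0% of the Sprr2f cells, against 32.6% and 36.2% of all cells, so it was about as frequent in them as elsewhere. In Sprr2h cells, Sprr1b was found in 52.6% of 78 saline and 69.0% of 84 losartan cells, although the r of this pair was low. Of the cells with Sprr1b, 74.2% of 291 saline and 64.7% of 595 losartan cells had Sprr1a.

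**Figure D3:**
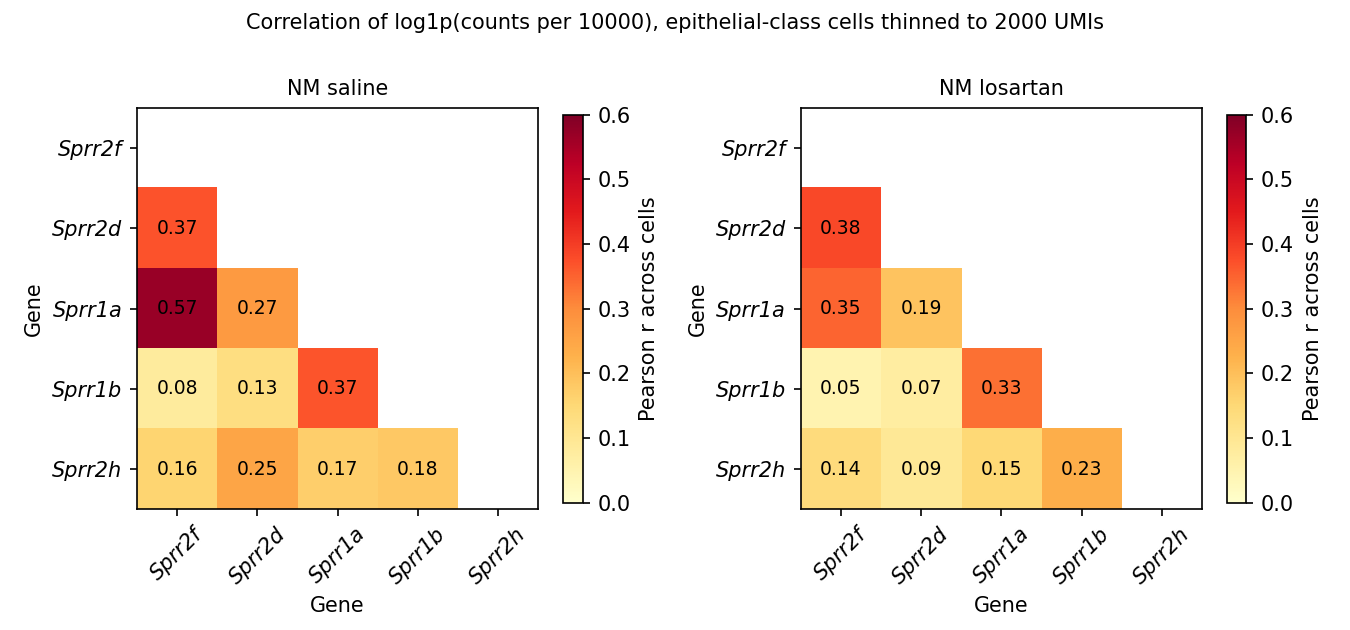
Pearson r of log1p(counts per 10000) between the 5 measured members across epithelial-class cells thinned to 2000 UMIs, 893 saline cells (left) and 1644 losartan cells (right); colour and number give r. Sprr2f goes with Sprr1a and Sprr2d, and Sprr1b with Sprr1a, while the Sprr1b and Sprr2f square stays at 0.08 and 0.05.

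The genes most like each member were found among 7687 genes with a UMI in at least 20 thinned cells of each injured library, ranked by the lower of the r values. Sprr1a was most like the wound keratins Krt16 (r 0.65 with saline and 0.65 with losartan) and Krt6b (0.73 and 0.65) and the raft protein gene Mal (0.76 and 0.64). Sprr2f was most like Krt13 (0.61 and 0.47) and Krt4 (0.45 and 0.46), the keratin pair of moist, non-cornified epithelia, and Ltf (0.56 and 0.42), which encodes the secreted iron-binding protein lactoferrin. This order rests on the lower r. With saline, Mal (0.63) and Krt6b (0.61) were as close to Sprr2f as Krt13 was, and with losartan both had 0.33. Krt13 (0.44 and 0.34) and Krt4 (0.44 and 0.30) were in turn related to Sprr1a. Sprr2d was most like the keratin gene Krt23 (0.36 and 0.26), the cornifelin gene Cnfn (0.30 and 0.24) and Psca (0.26 and 0.22). With Sprr2f, r was higher in both libraries for Krt23 (0.50 and 0.32) and Psca (0.60 and 0.40), while Cnfn had 0.33 and 0.23. Sprr1b was most like the dermokine gene Dmkn (0.34 and 0.31), the fatty acid binding protein gene Fabp5 (0.31 and 0.29) and Lypd3 (0.29 and 0.29). These genes were not all particular to Sprr1b. With Sprr1a, Lypd3 had a higher r (0.44 and 0.37), Dmkn a similar one (0.32 and 0.39) and Fabp5 a lower one (0.28 and 0.15). The r of Sprr1b with Krt13 was −0.04 and −0.02, and with Ltf −0.13 and −0.13. Sprr2h had only weak relations, led by the chemokine gene Ppbp (0.14 and 0.14), the suprabasin gene Sbsn (0.12 and 0.14) and Dmkn (0.11 and 0.20). Each of these genes had a higher r with Sprr1a in both libraries, Ppbp 0.57 and 0.46. Sprr3, Sprr2a1 and Sprr2b were in too few thinned cells.

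Cells of the epithelial class with at least 2000 UMIs were then split by marker lists that hold no Sprr gene. Simple-rich cells had at least 50 UMIs per 10000 of Krt7, Krt8, Krt18, Krt19, Krt4, Krt13, Psca, Muc1 and Muc4, which are typical of simple and conjunctival epithelium. The rest were split at 100 UMIs per 10000 of the wound keratins. Both minima were set after the data had been seen, and Krt13 and Krt4 are at once part of the simple list and the genes most like Sprr2f. Psca, also on the simple list, had an r of 0.60 and 0.40 with Sprr2f. Krt16 and Krt6b are on the wound keratin list and among the genes most like Sprr1a. The shares of Sprr2f and Sprr1a in these groups thus in part restate those relations. Simple-rich cells were 765 of 9568 uninjured cells, 26.5% of saline (237 of 893) and 13.1% of losartan cells (216 of 1644). Their median of corneal markers was 764 UMIs per 10000 uninjured, 9.97 with saline and 74.4 with losartan. The goblet cell markers Muc5ac, Spdef, Tff1 and Agr2 had a median of 0 in all epithelial-class cells of each library. How far differences in the mix of epithelia between the dissected tissues bear on the Sprr levels was not tested.

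At the minimum of 50, simple-rich cells held 91.9% of the Sprr2f UMIs with saline and 86.7% with losartan. Sprr2d had 89.9% and 64.6% of its UMIs there, and Sprr3 had 82.5% and 75.4%. For Sprr1a the shares were 68.2% and 38.2%. The wound-rich, simple-poor cells held 27.1% and 55.7% of Sprr1a. Sprr1b had 44.2% and 16.9% in simple-rich cells, and Sprr2h had 58.0% and 10.8%. These shares moved with the minimum. At 25, simple-rich cells held 95.4% and 89.9% of Sprr2f, 77.0% and 52.2% of Sprr1a, 55.8% and 27.4% of Sprr1b and 67.4% and 36.7% of Sprr2h. At 100 they held 70.2% and 77.8% of Sprr2f, so the order of the libraries turned, and 35.4% and 24.2% of Sprr1a, 16.9% and 9.34% of Sprr1b and 29.3% and 5.97% of Sprr2h. Sprr2d had 93.8% and 72.7% at 25 and 65.7% and 48.5% at 100. Of these 5 genes, Sprr2f had the highest share in simple-rich cells in both libraries at each of the 3 minima. In the uninjured library, wound-rich, simple-poor cells were 3.46% of cells and held 35.2% of Sprr1a, at 393 CPM, and simple-rich cells held 20.7%, at 101 CPM. The 765 uninjured simple-rich cells had 5 UMIs of Sprr2f and 1 of Sprr1b in all, so cells above the same simple-marker minimum held almost none of these genes without injury.

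**Figure D4:**
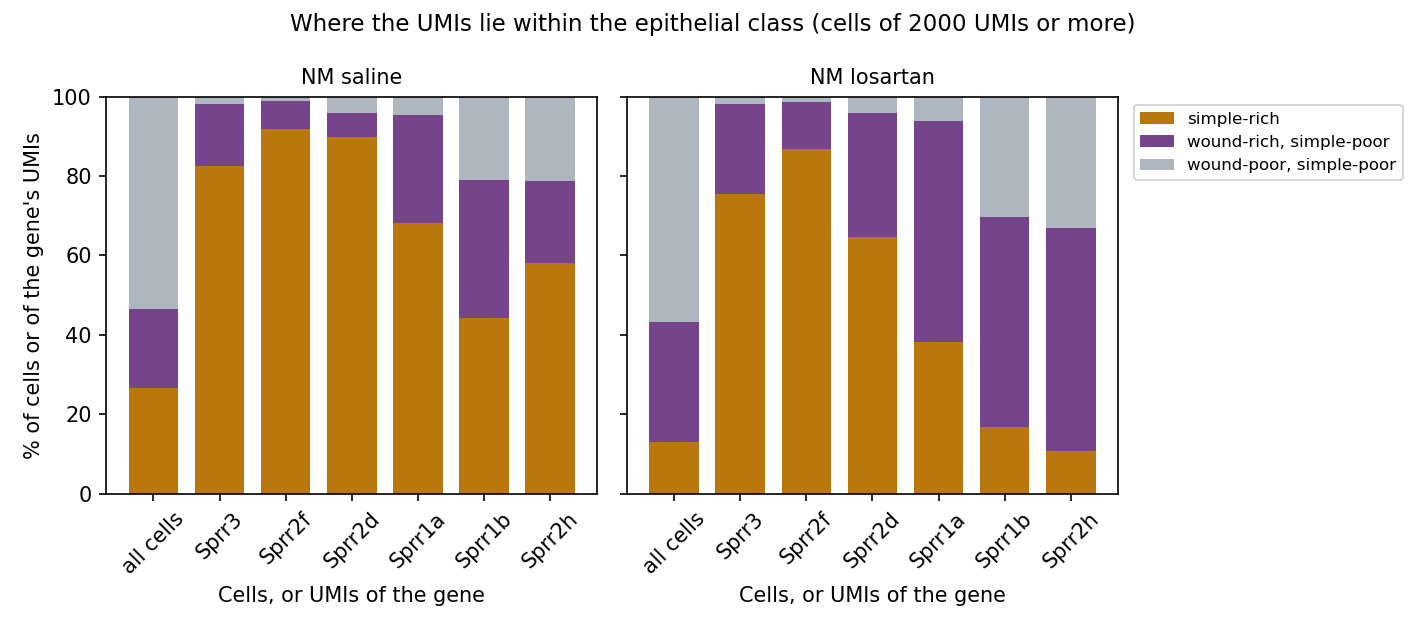
Share (%) of all epithelial-class cells with at least 2000 UMIs (first bar) and of each gene's UMIs (other bars) in simple-rich, wound-rich simple-poor and wound-poor simple-poor cells, saline library left and losartan library right. Simple-rich cells are 26.5% and 13.1% of cells but hold 91.9% and 86.7% of Sprr2f, against 44.2% and 16.9% of Sprr1b.

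Within the groups of cells the losartan library was still lower for Sprr2f. Simple-rich cells had 5839 CPM of Sprr2f with saline and 3232 CPM with losartan, a ratio of 0.553 (0.546 to 0.561). The ratio was 0.240 (0.231 to 0.250) in wound-rich, simple-poor cells, from 795 to 191 CPM, and 0.270 (0.240 to 0.303) in wound-poor, simple-poor cells, from 46.4 to 12.5 CPM. So the level differed within each group of cells, and the share of simple-rich cells differed as well. With a simple-marker minimum of 25 or 100 UMIs per 10000, chosen after the data had been seen, the ratio in simple-rich cells was 0.458 or 0.661.

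The other members differed in where the libraries parted. Sprr2d had a ratio of 0.578 (0.549 to 0.610) in simple-rich cells, 1.04 (0.921 to 1.17) in wound-rich, simple-poor cells and 0.294 (0.235 to 0.365) in wound-poor, simple-poor cells. In the wound-poor group it stood at 12.7 CPM with saline and 3.74 CPM with losartan. Thinned neutrophils had 3.26 and 1.72 CPM of it, so background limits this ratio too. Of the 216 losartan simple-rich cells, 5 held 50% of the group's Sprr2d UMIs. At the minimum of 50, Sprr2h was lower with losartan mainly in simple-rich cells, at 0.259 (0.229 to 0.291). It stood at 0.902 (0.829 to 0.980) in wound-rich, simple-poor cells. In these groups, 6 of 216 and 4 of 493 losartan cells held 50% of the group's Sprr2h UMIs. The intervals do not cover which group such cells fell in. With a minimum of 25 the Sprr2h ratio in simple-rich cells was 0.624. Sprr1a had ratios of 0.810, 0.716 and 0.708 in the simple-rich, wound-rich and wound-poor groups. Sprr1b had 0.941, 0.899 and 1.33, so at these minima only the cells with the fewest of these markers had more of it with losartan. With a simple-marker minimum of 100, the simple-rich ratio was 1.38 for Sprr1b and 1.01 for Sprr1a. Sprr3 went the other way from Sprr2f in simple-rich cells, at 24.5 CPM with losartan and 13.2 CPM with saline, a ratio of 1.86 (1.52 to 2.26). There, 3 of the 216 losartan cells held 50% of its UMIs.

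**Figure D5:**
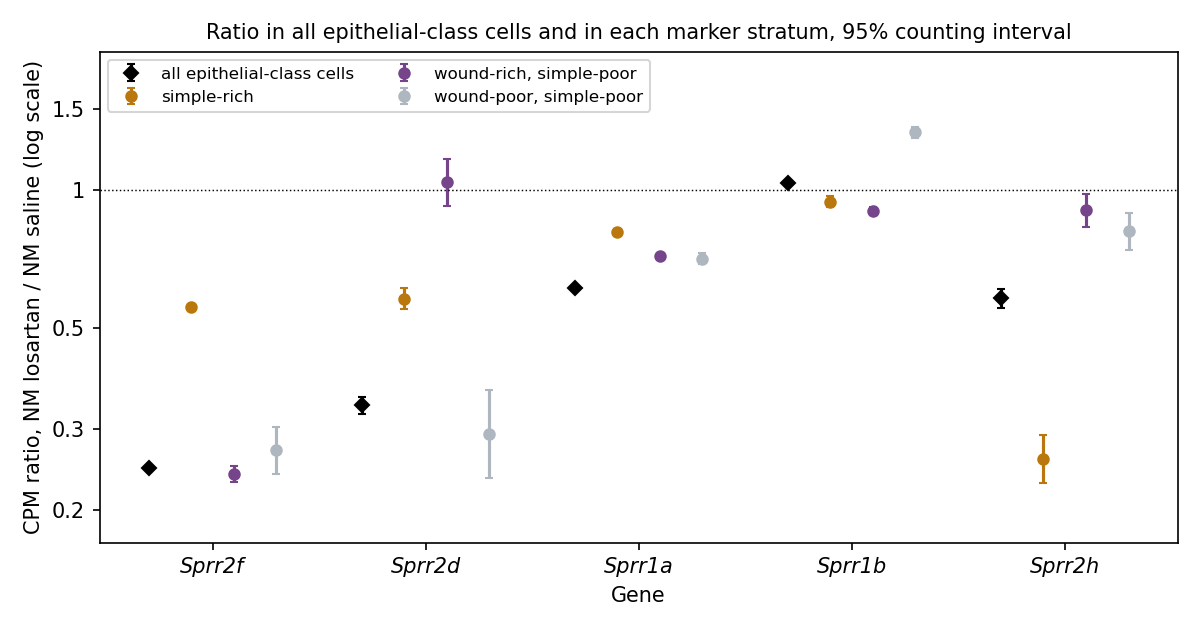
Ratio of CPM in the losartan to the saline library (log axis) for the 5 measured members, in all epithelial-class cells (diamonds) and in each marker group (circles), with exact conditional binomial 95% intervals; the dotted line is a ratio of 1. Sprr2f is below 1 in all 3 groups (0.553, 0.240 and 0.270), Sprr1b lies near 1 or above it, and Sprr2h is far below 1 in simple-rich cells alone (0.259).

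The cells that hold most of a member were deep. At full depth, the saline cells that held 50% of each measured member had median totals from 106188 to 162774 UMIs, against 17561.5 over the class. With losartan the range was 46340.5 to 82725 UMIs against 28359. Of the 28 saline cells for Sprr1b and the 29 for Sprr2f, 5 were the same. That is 17.9% of the first and 17.2% of the second set, where the sets were 2.30% and 2.38% of all saline epithelial-class cells. With losartan, the 59 Sprr1b cells and the 7 Sprr2f cells had 3 in common, 42.9% of the Sprr2f set. The Sprr1b set was 3.08% of all losartan epithelial-class cells. Sprr1b and Sprr2h shared 13 saline cells, 56.5% of the 23 for Sprr2h, and 12 losartan cells, 70.6% of the 17 for Sprr2h. Sprr1a shared 15 of the 29 saline and 6 of the 7 losartan Sprr2f cells, and 16 of the 28 saline Sprr1b cells. Sprr2d and Sprr2f shared 2 of the 8 saline (25%) and 1 of the 8 losartan cells (12.5%) for Sprr2d. The Sprr2f holders were 2.38% of all saline and 0.365% of all losartan epithelial-class cells, so these overlaps of few cells lie above that share. The part of depth in the overlaps was not tested. The Sprr2f holders had medians of 215 (saline) and 254 (losartan) simple-marker UMIs per 10000, while the Sprr1b holders had 55.9 and 14.9 and the whole class 12.3 and 2.62.

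Markers of other cell types were looked at in the same holders. The neutrophil list had medians of 1.18 to 2.86 UMIs per 10000 in saline holders, against 0.726 in the class, and of 0.252 to 1.65 in losartan holders, against 0.139. Its genes Cxcr2, Csf3r and Retnlg had a median of 0 UMIs per 10000 in the holders of each member, except 0.0271 in the 8 saline holders of Sprr2d. Over the whole class the median of these genes was 0 in both libraries as well. It therefore cannot tell holders from the class, while the full list was higher in the holders. Macrophage markers other than Arg1 had medians from 1.42 to 2.33 in saline holders and from 0.838 to 1.53 in losartan holders, against 1.06 and 1.23 in the class. With Arg1 the list's median was 21.3 to 45.7 in saline and 6.61 to 28.4 in losartan holders, against 5.67 and 4.03 in the class. Stromal markers other than Aldh1a3 had medians of at most 0.0712 (saline) and 0.519 (losartan) UMIs per 10000, and with Aldh1a3 the medians reached 40.2 and 55.5, against 7.85 and 7.80 in the class. The part of these markers in the Sprr values was not tested.

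The other genes of envelope formation were taken from 7 lists with 130 genes. Of the 39 other envelope precursors, 11 were measured. With saline, 8 were higher than in the uninjured library and 2 lower, where 19.8% and 17.6% of all genes were. Their median log2 ratio was 1.66 against 0.01 for all genes. Dmkn went from 3.59 to 338 CPM, Sbsn from 4.59 to 232 CPM and Cnfn from 8.77 to 82.1 CPM. The lower ones were the late envelope gene Lce3a (32.0 to 12.2 CPM) and the envoplakin gene Evpl (289 to 144 CPM). Between the injured libraries 1 of the 11 was higher with losartan, Lce3a at 35.3 CPM, and 1 lower, the involucrin gene Ivl, from 40.3 to 19.3 CPM. Over all genes, 2.13% were higher and 5.76% lower. The other 9 measured precursors, like Sprr1b, differed by less than 1.5-fold on the CPM + 5 scale, Cnfn being the nearest to it at a log2 ratio of 0.57.

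Among the crosslinking enzymes, Tgm1, the keratinocyte transglutaminase, was at 20.6 CPM uninjured, 34.5 CPM with saline and 19.8 CPM with losartan. Tgm2, the tissue transglutaminase, was at 188, 9.85 and 4.71 CPM. Of 14 measured protease and protease inhibitor genes, 10 were higher and 2 lower with saline than uninjured, where 19.8% and 17.6% of all genes were. The highest were the plasminogen activator inhibitor Serpinb2 (2.38 to 205 CPM), Spink5, an inhibitor of kallikreins (50.2 to 662 CPM), and Slpi, an inhibitor of neutrophil elastase (16.7 to 242 CPM). Stfa1 (65.4 to 9.41 CPM) and Asprv1 (2183 to 1009 CPM) were lower. Some of the higher genes, among them Serpinb2, were under 10 CPM uninjured, and Stfa1 was under 10 CPM with saline. The filter fixed the direction of these genes, so nothing is read from the counts against uninjured. With losartan against saline, where 2.13% of all genes were higher and 5.76% lower, 1 was higher, Stfa3 at 199 against 70.4 CPM. Lower were 7, led by Slpi (82.0 CPM) and the kallikreins Klk8 (24.1 against 70.2 CPM) and Klk11 (28.9 against 71.4 CPM). The median log2 ratio of this list was −0.60, and that of the other precursors 0.02.

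Of 9 measured keratins, 7 were higher and 0 lower with saline than uninjured, where 19.8% and 17.6% of all genes were. They were led by Krt17 (21.4 to 1777 CPM), Krt4 (39.1 to 482 CPM) and Krt14 (1130 to 12090 CPM). With losartan against saline, where 2.13% of all genes were higher and 5.76% lower, Krt16 was higher (5489 against 3296 CPM). Lower were 3, Krt17 (877 CPM), Krt13 (1041 against 2036 CPM) and Krt4 (287 CPM). Krt13 and Krt4, the genes closest to Sprr2f, were thus lower in the losartan library too, as Sprr2f was. Of 12 measured junction genes of the cornified layer, 2 were higher (the corneodesmosin gene Cdsn and Cldn1) and 3 lower (Dsg1a, Dsc3 and Dsg1b) with saline, counts to be read beside the 19.8% higher and 17.6% lower over all genes. Cdsn (1.63 CPM uninjured) and Dsg1a (8.65 CPM with saline) were under 10 CPM in 1 library, so the filter fixed their direction. With losartan against saline 3 were higher (Dsg1a, Cdsn and Dsc3) and 0 lower, where 2.13% and 5.76% of all genes were. Of 30 measured transcription factors of terminal differentiation, 3 were higher with saline (Maf, Ets1 and Cebpa) and 15 lower, where 19.8% and 17.6% of all genes were. The filter likewise fixed the direction of Maf (0.861 CPM uninjured) and Ets1 (3.34 CPM uninjured). Among the lower were the AP-1 genes Fos (1958 to 647 CPM) and Jun (1547 to 529 CPM), and Pax6 (358 to 85.1 CPM). With losartan against saline 2 were higher, Prdm1 (79.1 against 41.4 CPM) and Klf4 (927 against 564 CPM), and 0 lower, where 2.13% and 5.76% of all genes were.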

How the data were processed

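Per the file headers, the deposited matrices hold raw UMI counts made by the authors with Cell Ranger 8.0.0. The submitters' processing notes name GRCm38 as the genome. The sources used here do not give the annotation release, the chemistry, whether introns were counted or whether doublets had been removed. Members and lists were chosen with earlier results of these data known. Cells with at least 500 genes and at most 20% mitochondrial UMIs passed. Doublets were scored against 2 simulated doublets per cell and removed at 0.8% per 1000 barcodes, 1334, 334 and 243 cells. A cell took the class, of 11, whose markers had the highest mean log1p(counts per 10000), with a gap of 0.1 to the next. This rule was set after the data had been seen, and 9, 91 and 98 cells stayed unassigned. Measured genes reached 10 CPM in either library of a comparison, and floors are 3 counts. Intervals are exact Poisson (CPM), Clopper-Pearson (shares) and conditional binomial (ratios). All members are named. From each list up to 3 highest and 3 lowest genes past 1.5-fold are named, as are the 3 genes most like each member. The ratio, call and interval calculations were tested on simulated data. Promoters in RefSeq matched 8 of 8 members. Analyses used Python 3.11.15, numpy 2.4.6, scipy 1.17.1 and scikit-learn 1.9.0. Alternatives covered the cell filter, doublets, scaling, pseudocount, depth and marker minima.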

Additional observations from a re-analysis of the deposited data

Results flagged for a closer look

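Barcodes that failed the cell filter were used in no comparison, and Sprr UMIs were seen in them above the level in the failed barcodes of the uninjured library. The 680 saline barcodes had 844 CPM of Sprr1a, 384 CPM of Sprr2f, 147 CPM of Sprr1b, 29.7 CPM of Sprr2d and 19.8 CPM of Sprr2h. The 725 losartan barcodes had 985 CPM of Sprr1a, 286 CPM of Sprr2f, 191 CPM of Sprr1b, 19.9 CPM of Sprr2d, 5.69 CPM of Sprr2h and 5.69 CPM of Sprr3. The 703 uninjured barcodes had 35.2 CPM of Sprr1a, 1.96 CPM of Sprr2d and 0 UMIs of the other members. The Sprr3 value rests on 4 UMIs and lies above its epithelial-class level of 4.52 CPM. Above their class levels too were Sprr2d in the uninjured barcodes and Sprr2a1 in the saline ones (1.24 against 0.420 CPM), each from 1 UMI.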

How the results depend on the processing

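Between the injured libraries 4 of 5 measured members were lower with losartan under 5 of the 7 other settings tried (200 genes as the minimum, no doublet removal, median-of-ratios scaling, CPM + 1, thinning). Without cells over 100000 UMIs it was 3. Using only cells with no UMI of the immune lists, which hold Arg1, it was 1 (Sprr2f, log2 ratio −1.12), with 129 saline and 194 losartan cells left. The count of 5 members higher than uninjured was 4 of 4 measured in those cells, for both injured libraries, and 5 under the others. The log2 ratios to uninjured were far smaller there, with saline 5.85 for Sprr1b, 3.92 for Sprr1a, 3.47 for Sprr2f, 2.36 for Sprr2h and 0.67 for Sprr2d, and with losartan 5.39, 3.55, 2.35, 2.10 and 0.63. Shallow cells lack immune-list UMIs more easily, while the cells that hold most of a member were deep. The part of depth in these smaller ratios was not tested. Pairs of members with an r of 0.2 or more in both injured libraries numbered 3 at 2000 UMIs per cell, 5 at full depth and 5 at 5000 UMIs per cell. The pairs added at both were Sprr1a with Sprr2d and Sprr1b with Sprr2h, and the cause was not tested. Of 40 shares of cells holding 50% of a member, 7 moved, all at full depth. No change past 1.5-fold reversed. Sprr1b, below that size, had log2 ratios between the injured libraries from −0.46 to 0.37. Counts of other envelope genes stayed within 1.5 times of their main values. No paired analysis was possible because each group has 1 library. Each value rests on 1 library, and fewer UMIs limit Sprr3, Sprr2a1 and Sprr2b.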
